A study of Mus musculus with 12 samples.

Results

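The SR and hnRNP splicing factor genes are the protein-coding mouse genes whose symbol starts with Srsf, Hnrnp or Clk followed by a digit, together with Rsrp1, Tra2a, Tra2b, Srrm1 and Srrm2. They were picked by name, and 40 of the 29879 genes counted met that rule. All 40 had reads, and 39 passed the filter on low counts, which kept 13404 genes. Srsf1, a founding member of the SR family, did not pass, with 0 to 10 reads per library, and no value is given for it below.

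RNA came from the cortex of SNAP25 bacTRAP mice on postnatal day 21, in 12 libraries that form 4 groups of 3. WCH is RNA of cortex before any selection, and TRAP is RNA recovered from cortex with eGFP-tagged ribosomes by immunoprecipitation. SNF is the band that the labels call SN, taken from a gradient of sucrose and percoll with no immunoprecipitation, and SynapTRAP is the eGFP immunoprecipitate of that band. All 4 groups carry the transgene, in which sequence of Snap25, a gene of neurons, drives the ribosome tag, and no library from an untagged mouse was analysed here. The labels do not say whether libraries of a group came from separate mice, so p-values measure only the spread between these libraries.

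SR proteins bind short sequences in exons through an RNA recognition motif and recruit the spliceosome through a domain rich in arginine and serine, the RS domain. The CLK kinases phosphorylate that domain, which releases SR proteins from nuclear speckles. Most hnRNPs bind nascent RNA and often act against SR proteins, and several also travel to the cytoplasm, where they take part in the transport, translation or decay of mRNA. Many genes of both families control their own output through a poison exon, which exposes the transcript to nonsense-mediated decay, or through an intron that is kept in the transcript and detains it in the nucleus. Clk1 and Clk4 are textbook cases of the latter.

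Gene counts were 4368881 to 14335089 per library and 1819853 to 7115176 outside the mitochondrial genome, whose genes took 82.2% to 87.3% of gene counts in SNF against 0.930% to 5.43% in TRAP. The tag itself was counted at 32.8 ± 19.3 CPM (counts over the library size as edgeR's TMM factors scale it; SD, n = 3) in TRAP and 5.99 ± 1.30 in WCH, and at 9.05 ± 1.36 in SynapTRAP and 3.25 ± 0.430 in SNF. In TRAP against WCH, 8 of 15 neuron markers rose, whereas markers of oligodendrocytes (8 of 12), astrocytes (6 of 12) and microglia (4 of 12) fell (edgeR quasi-likelihood test, adjusted p under 0.05, as for every call below). Against WCH, SNF was higher for 12 of 12 markers of microglia, 11 of 12 of astrocytes and 8 of 12 of oligodendrocytes. Neuron markers there gave 4 higher and 3 lower of 15. Over all genes tested, 20.6% were higher and 16.5% lower in SNF. The scaling set the middle of all genes differently: the median log2 difference over all genes tested between SNF and WCH was -0.25, and became -0.64 when libraries were scaled by their counts outside the mitochondrial genome and -0.12 with relative log expression factors. Differences are therefore also given against that median. In bulk RNA, fewer cells of a type and less RNA per cell cannot be told apart.

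The splicing factor genes together took 0.455% ± 0.0190 (SD, n = 3) of the counts outside the mitochondrial genome in WCH and 0.330% ± 0.0636 in TRAP. Their share was 0.209% ± 0.0441 in SNF and 0.226% ± 0.0538 in SynapTRAP. Within groups, 1 library often stood apart over the whole set. SNF replicate 3 held the highest of the 3 CPM values for 33 of the 39 genes (84.6%, against 35.7% of all genes tested), and SynapTRAP replicate 3 for 31 of 39 (79.5%, against 38.7%). TRAP replicate 2 held the lowest value for 25 of 39 (64.1%, against 32.1%). SynapTRAP replicate 3 had the largest mitochondrial share of its group, 63.3%, and TRAP replicate 2 the highest mean level of 9 endothelial markers, 1.95 on the log2 CPM scale against -0.54 and -0.47 in the other TRAP libraries. The part of these in the splicing factor values was not tested, and counts without these libraries are given with the comparisons they enter.

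Per kilobase of annotated exon, levels spanned a wide range. In WCH, the highest was Rsrp1, which encodes a small protein rich in arginine and serine, at 29.2 ± 4.74 CPM per kb (SD, n = 3). Srrm2, the large scaffold protein of nuclear speckles, followed at 27.9 ± 1.87, which did not differ from Rsrp1 beyond the spread. Next came Hnrnpa2b1, which binds transport signals in dendritic mRNAs, at 19.5 ± 2.30, and then Hnrnpa0 at 16 ± 1.78 and Srsf2, an SR gene, at 15.5 ± 2.20, which overlapped each other. The lowest were Hnrnpf at 0.897 ± 0.244, Clk3 at 0.796 ± 0.124 and Hnrnpa1 at 0.726 ± 0.0497 CPM per kb. In TRAP, SNF and SynapTRAP, Srrm2 and Hnrnpa2b1 came first and second, at 37.9 ± 9.60 and 16.7 ± 8.32, 21.4 ± 2.86 and 15.2 ± 3.39, and 28.5 ± 9.32 and 18.7 ± 4.64 CPM per kb. Rsrp1 was at 8.33 ± 0.833 CPM per kb in TRAP and 6.73 ± 2.21 in SNF.

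**Figure D1:**
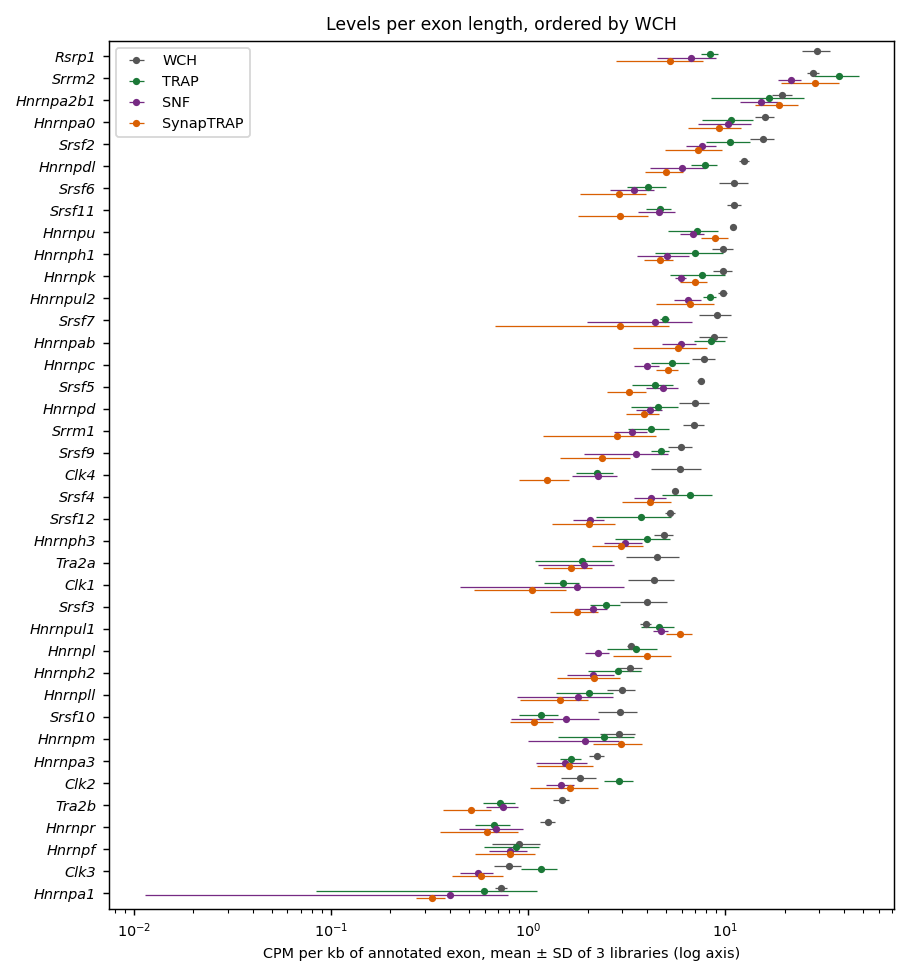
Level of each splicing factor gene tested, in CPM per kilobase of annotated exon on a log axis, as mean ± SD of 3 libraries per group, ordered by WCH. Rsrp1, at 29.2 CPM per kb in WCH, is the gene at the top whose other groups lie far to the left, while Srrm2 and Hnrnpa2b1 stay among the highest in every group.

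Some counts cannot be assigned with certainty, because the sources used here do not say whether reads were counted by strand. Annotated genes on the other strand cover 43.0% of the exons of Srsf4, 29.1% of Hnrnpab, 26.5% of Hnrnpf, 25.3% of Srsf2 and 15.2% of Clk3. Transcripts of other genes also hold 61.9% of the 50-base stretches of Hnrnpf, 28.2% of Hnrnpa1 and 27.1% of Hnrnpa3, and reads that align to several places were not counted for a gene.

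Promoters are shown for 4 genes picked after their values were seen, Rsrp1 and Srsf6, which fell in the first comparison, and Clk2 and Srrm2, which had positive differences there that did not pass the test. Clk3 had a larger positive difference than Srrm2, and its window, not shown, holds a GC box. Each window runs over the 150 bases before the RefSeq start on GRCm38.p6, + strand, and for Rsrp1 it stops 33 bases earlier, where annotated exon begins. They lie at chr4:134923475-134923591, chr2:162931358-162931507, chr3:89164645-89164794 and chr17:23803037-23803186 in that order, with the first of 2 listed starts for Srrm2. Capitals mark the GC box GGGCGG or its reverse complement, and the CCAAT box likewise.
Rsrp1: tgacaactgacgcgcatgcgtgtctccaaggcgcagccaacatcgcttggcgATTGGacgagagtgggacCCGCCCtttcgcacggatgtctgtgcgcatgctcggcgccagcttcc
Srsf6: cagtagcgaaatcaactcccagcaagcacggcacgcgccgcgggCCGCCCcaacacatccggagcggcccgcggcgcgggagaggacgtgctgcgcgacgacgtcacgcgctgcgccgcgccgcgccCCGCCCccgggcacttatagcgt
Clk2: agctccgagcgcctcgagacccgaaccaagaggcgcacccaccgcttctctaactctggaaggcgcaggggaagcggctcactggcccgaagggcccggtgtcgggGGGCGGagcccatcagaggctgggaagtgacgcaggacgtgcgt
Srrm2: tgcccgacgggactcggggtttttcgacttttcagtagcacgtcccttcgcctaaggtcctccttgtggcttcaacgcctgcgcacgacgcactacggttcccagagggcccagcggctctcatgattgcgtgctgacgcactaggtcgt
RefSeq windows matched 37 of the 40 genes. Of these, 28 (75.7%) held GGGCGG on either strand in the 150 bases, against 31.3% of 27025 genes, and 18 (48.6%) held CCAAT, against 27.7%. Those 27025 are all genes with a window, not only genes tested here, so the shares do not compare like with like. TATAAA was in 2 (5.41%, against 8.89%), CACGTG in 3 (8.11%, against 4.92%), and TGACGTCA in 2, Clk4 and Tra2a (5.41%, against 1.58%). No motif contains another, and such matches describe letters only. The median window held 16 CG dinucleotides over the splicing factor genes and 4 over the same 27025 genes. None of the 5 motifs was in the Srrm2 window shown.

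The first comparison, TRAP against WCH, sets RNA on tagged ribosomes against total cortex RNA. Many splicing factor mRNAs were lower in TRAP than in WCH, and the fall was deepest for Rsrp1, the Clk1 and Clk4 kinases and a group of SR genes. Of the 39 genes, 11 fell (28.2%, against 10.9% of all genes tested) and 0 rose (against 11.1% of all genes). An unadjusted p under 0.05 was reached by 19 lower genes (against 17.6% of all genes) and 1 higher, Clk2 (against 17.5%). DESeq2 called 12 lower and 0 higher. The median log2 difference was -0.54 over the 39 genes and -0.01 over all genes, and 33 of 39 lay below the latter. Without TRAP replicate 2 these medians were -0.37 and 0.0009. All TRAP values lay below all WCH values for 20 of the 39 genes (against 22.5% of all genes tested) and above them for 2 (against 20.6%). The 10 SR genes tested gave 4 that fell, the SR-like and coactivator genes 3 of 5, the CLK kinases 2 of 4, and the hnRNPs 2 of 20.

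Among SR genes, Srsf6, whose protein promotes exon inclusion, had WCH values of 44.4, 54.2 and 62.0 CPM for replicates 1 to 3 and TRAP values of 24.6, 17.5 and 16.6. The SNF libraries held 14.7, 13.8 and 21.4 CPM and the SynapTRAP libraries 9.22, 13.1 and 19.5. Every WCH library was above every library of the other 3 groups. Its level in TRAP was 0.366 times that in WCH (log2 -1.45, SE 0.27, edgeR adjusted p = 0.000885). Srsf10, a splicing repressor when it is dephosphorylated, and Srsf11 fell by 1.34 (SE 0.31) and 1.26 (SE 0.25) on the log2 scale, and Srsf5 fell by 0.77 (SE 0.24), the smallest called change of an SR gene. Its TRAP values of 22.2, 14.4 and 15.8 CPM still lay below the 31.3, 29.1 and 29.3 CPM of WCH. Srsf4 was the only SR gene with a positive difference, 0.25 (SE 0.25), and was not called.

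Rsrp1 had the largest fall of the set. Its WCH libraries held 80.4, 101 and 111 CPM and its TRAP libraries 25.3, 27.5 and 30.8. In SNF it was at 14.1, 25.5 and 28.0 CPM, and in SynapTRAP at 10.7, 15.4 and 26.7. WCH was far above all other libraries, while TRAP, SNF and SynapTRAP overlapped. In TRAP the level was 0.285 times that in WCH (log2 -1.81, SE 0.29, edgeR adjusted p = 0.000295), lower than for all but 2.39% of genes tested. The gene, ENSMUSG00000037266, lies on chromosome 4 from 134923592 to 134927671. Tra2a and Tra2b, whose proteins bind exonic enhancers beside SR proteins, fell by 1.26 (SE 0.32) and 1.03 (SE 0.28) on the log2 scale. Tra2b was at 14.0, 12.2 and 14.7 CPM in WCH against 7.07, 7.61 and 5.31 in TRAP, without overlap. Of the speckle proteins, Srrm1 gave -0.73 (SE 0.30) and Srrm2 0.44 (SE 0.26), neither called.

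Of the 4 CLK kinases, Clk1 and Clk4 fell, and Clk2 and Clk3 were not called. Clk1 was at 28.3, 45.6 and 31.9 CPM in WCH, 15, 11.7 and 10.1 in TRAP, 6.62, 9.84 and 26.5 in SNF, and 5.37, 6.91 and 13.3 in SynapTRAP. Clk4, its closest relative, was at 23.6, 42.8 and 35.4 CPM in WCH and 10.3, 12.7 and 15.7 in TRAP, and at 10.4, 12 and 16.8 in SNF and 4.89, 8.57 and 8.26 in SynapTRAP. For both, WCH lay above every other library. Their levels in TRAP were 0.348 and 0.379 times those in WCH (log2 -1.52, SE 0.39, and -1.40, SE 0.28, edgeR adjusted p = 0.0114 and 0.00161).

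Clk2 was at 8.26, 12 and 8.89 CPM in WCH and 14.5, 13.4 and 18.2 in TRAP. In SNF it was at 7.19, 6.91 and 9.24 CPM and in SynapTRAP at 8.58, 5.46 and 11.9. Its TRAP libraries were above all 9 others. Clk3 was at 6.72, 7.77 and 5.68 CPM in WCH, 8.22, 9.15 and 12.1 in TRAP, 5.75, 4.25 and 4.14 in SNF, and 3.93, 4.17 and 6.49 in SynapTRAP. It too was highest in the 3 TRAP libraries. Against WCH the log2 differences were 0.66 (SE 0.28, edgeR adjusted p = 0.0984) for Clk2 and 0.54 (SE 0.29, edgeR adjusted p = 0.189) for Clk3, so neither passed. Clk2 was called higher when only the 6 libraries of this comparison were fitted.

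**Figure D2:**
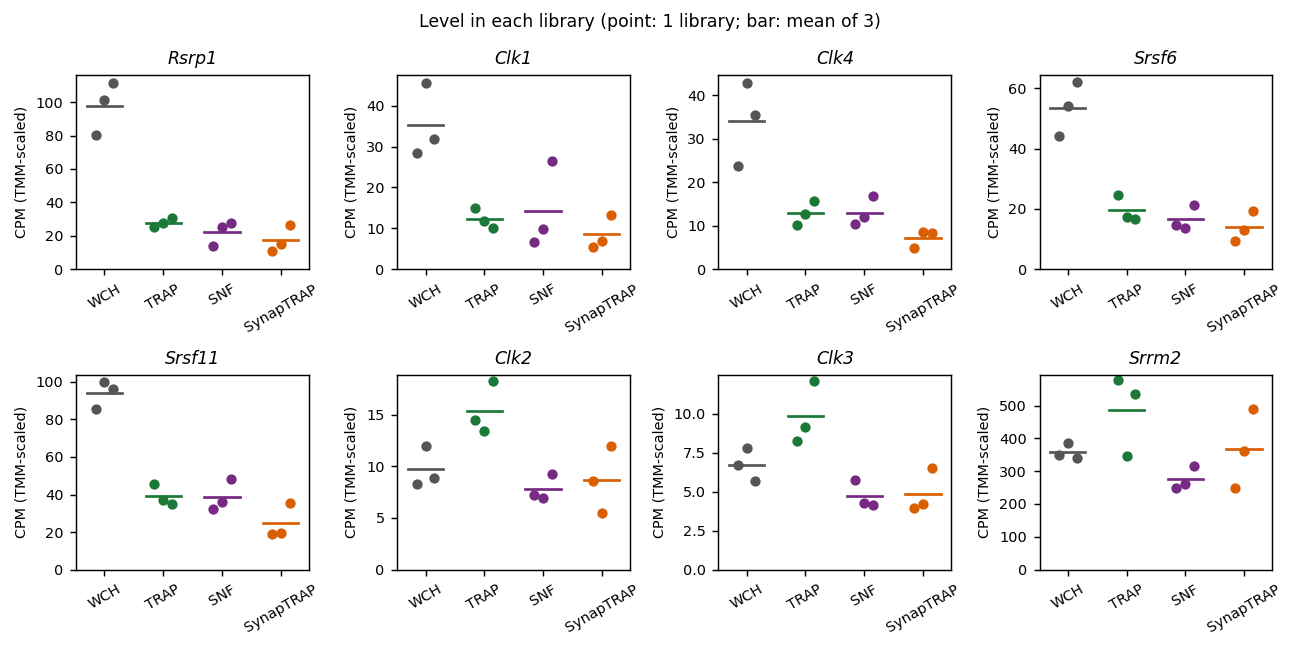
CPM (TMM-scaled, linear axes from 0) of 8 splicing factor genes in each of the 12 libraries, with a bar at the mean of each group of 3. Rsrp1, Clk1, Clk4, Srsf6 and Srsf11 are highest in WCH, whereas Clk2 and Clk3 are highest in TRAP and the groups of Srrm2 lie closer together.

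Of the 20 hnRNP genes, 2 fell in TRAP against WCH, a share near the 10.9% of all genes that fell. Hnrnpr, whose protein binds actin mRNA in axons, was at 29.9, 25.2 and 29.0 CPM in WCH and 18, 11.9 and 14.9 in TRAP, with 14.4, 10.4 and 21.2 in SNF and 8.50, 12.7 and 20.1 in SynapTRAP. WCH again lay above the other 9 libraries, and TRAP was 0.534 times WCH (log2 -0.90, SE 0.29, edgeR adjusted p = 0.0288). Hnrnpdl, a relative of the AU-rich element binding hnRNP D, fell by 0.66 (SE 0.24; edgeR adjusted p = 0.0479). The other 18 hnRNP genes ranged from -0.63 for Hnrnpd to 0.22 for Hnrnpul1 and were not called. The F and H genes, which bind runs of G, had a median of -0.24, and the L genes, which bind CA repeats, also one of -0.24.

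In this comparison, 5 calls, those of Rsrp1, Clk4, Srsf6, Srsf10 and Srsf11, were made under every one of the 21 alternative settings. The count of 11 became 7 without WCH replicate 1, 7 without WCH replicate 2, 6 without WCH replicate 3, 7 without TRAP replicate 2 and 7 without TRAP replicate 3. Clk1 lost its call without WCH replicate 2 or TRAP replicate 3, Tra2a without WCH replicate 3 or TRAP replicate 2, and Tra2b without WCH replicate 1 or 3 or TRAP replicate 3. Hnrnpr and Srsf5 lost theirs without any 1 WCH library and without TRAP replicate 2 or 3, and Hnrnpdl under 10 of the settings. In the same libraries, 2 of the 7 nuclear noncoding RNAs tested fell, Malat1 by 3.86 (SE 1.05) and Miat by 3.08 (SE 0.79), and the summed level of that list was 14271 to 23643 CPM in WCH and 874 to 1927 in TRAP. The summed astrocyte markers were at 2545 to 3191 CPM in WCH and 753 to 1640 in TRAP, and microglia markers at 89.8 to 112 and 27.6 to 57.4. Summed oligodendrocyte markers, at 2869 to 3644 CPM in WCH, spanned 551 to 7138 in TRAP, on both sides of WCH, and no marker was at 0 in any group. The part of any of these in the splicing factor values was not tested.

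**Figure D3:**
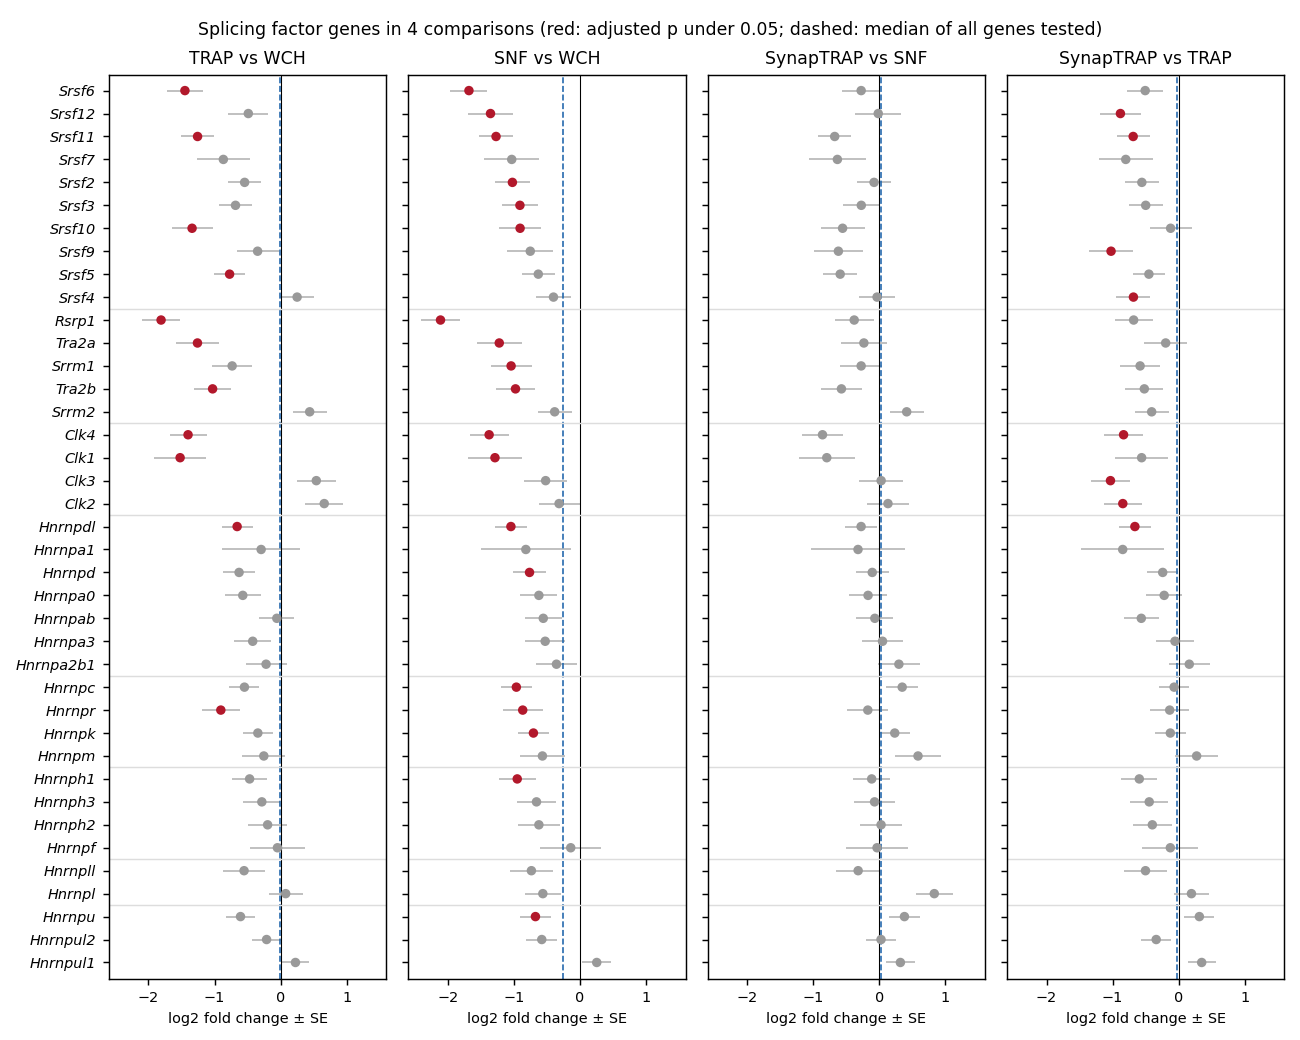
Log2 fold change ± SE of 39 splicing factor genes in 4 comparisons, grouped by role, with red points for an edgeR adjusted p under 0.05 and a dashed line at the median of all genes tested. Red points number 11, 19, 0 and 8 from left to right, all left of 0, and Rsrp1 is the leftmost point of the first 2 panels.

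The second comparison, SNF against WCH, asks which RNAs the gradient band holds relative to cortex. Genes of every role group but the hnRNP L type fell here, with Rsrp1 and Srsf6 the lowest. Of 39 genes, 19 fell (48.7%, against 16.5% of all genes tested) and 0 rose (against 20.6%). The unadjusted p was under 0.05 for 26 lower genes (against 23.6% of all genes) and 0 higher (against 23.3%). DESeq2 called 15 lower and 0 higher. The median log2 difference was -0.75 against -0.25 over all genes, and 37 of 39 genes lay below the latter. Without SNF replicate 3 these medians were -1.05 and -0.27. All SNF values lay below all WCH values for 29 of the 39 genes (against 33.6% of all genes tested) and above them for 1, Hnrnpul1 (against 25.6%). By role, 6 of 10 SR genes fell, 4 of 5 SR-like and coactivator genes, 2 of 4 CLK kinases and 7 of 20 hnRNPs. TRAP and SNF are both set against the same 3 WCH libraries here, so their differences are not independent of each other.

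Rsrp1 again fell most, to 0.231 times its WCH level (log2 -2.11, SE 0.30, edgeR adjusted p = 1.68e-05), and only 1.21% of genes tested had a lower difference. Srsf6 followed at 0.312 times (log2 -1.68, SE 0.28, edgeR adjusted p = 8.65e-05). Clk4 fell by 1.38 (SE 0.29) and Clk1 by 1.29 (SE 0.41) on the log2 scale, close to their values in TRAP. Clk2 and Clk3 gave -0.32 (SE 0.31) and -0.52 (SE 0.33) and were not called.

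Srsf12, an SR-like splicing regulator, was at 15.4, 17.3 and 16.9 CPM in WCH and 7.77, 5.58 and 6.08 in SNF. In TRAP it was at 12, 16.5 and 6.85 CPM and in SynapTRAP at 4.09, 8.57 and 6.49. The SNF libraries lay below all WCH libraries, while TRAP spanned both. It fell by 1.35 (SE 0.34) on the log2 scale in SNF, whereas in TRAP it gave -0.49 (SE 0.30) against WCH. Srsf2, Srsf3 and Srsf11 fell too, by 1.02 (SE 0.26), 0.91 (SE 0.27) and 1.27 (SE 0.25), and Srsf10 by 0.91 (SE 0.32). For Srsf10, SNF at 10.6, 5.85 and 16.1 CPM overlapped WCH at 15.4, 21.5 and 24.5. Tra2a, Tra2b and Srrm1 fell by 1.22 (SE 0.34), 0.98 (SE 0.30) and 1.04 (SE 0.31), and Srrm2 gave -0.38 (SE 0.26).

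In the band, 7 hnRNP genes fell. Hnrnpdl was at 60.7, 62.9 and 56.1 CPM in WCH and 25.6, 22.1 and 39.2 in SNF, and at 41.3, 31.4 and 41.1 in TRAP and 18.1, 25.8 and 28.2 in SynapTRAP. WCH lay above all other libraries, and SNF was 0.485 times WCH (log2 -1.05, SE 0.24, edgeR adjusted p = 0.00202). Hnrnpc, a core protein of nuclear hnRNP particles that binds runs of U, fell by 0.96 (SE 0.24), with 16.4, 15.4 and 20.2 CPM in SNF against 28.8, 35.2 and 37.6 in WCH. Hnrnph1, Hnrnpr, Hnrnpd and Hnrnpk fell by 0.95, 0.87, 0.76 and 0.70. Hnrnpu, a scaffold protein of the nucleus, had the smallest fall, 0.67 (SE 0.23), with 70.2, 76.1 and 91.5 CPM in SNF against 123, 127 and 130 in WCH. Hnrnpul1, its paralog, was the only one of the 39 genes with a positive difference, 0.25 (SE 0.22). Its values were 39.1, 38.3 and 45.0 CPM in SNF and 33.8, 36.7 and 32.2 in WCH, which did not overlap, and it was not called (edgeR adjusted p = 0.365).

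Of these calls, 9 were made under all 21 alternative settings: Rsrp1, Srsf6, Srsf2, Srsf11, Srsf12, Tra2a, Clk4, Hnrnpc and Hnrnpdl. The count of 19 became 10 without SNF replicate 1, 11 without SNF replicate 2 and 24 without SNF replicate 3. With scaling to counts outside the mitochondrial genome it became 35, but the median of all genes tested also moved, from -0.25 to -0.64. The median of the splicing factor genes less that of all genes was -0.50 under both scalings. Over all 21 alternatives this relative median ran from -0.78 to -0.42. Clk1 lost its call without WCH replicate 2 or SNF replicate 1 or 2, Srrm1 without SNF replicate 1 or 2, Tra2b without WCH replicate 1 or SNF replicate 1, and Srsf3 without WCH replicate 3 or SNF replicate 2. Hnrnph1 lost it without SNF replicate 1, Hnrnpd when either of WCH replicates 1 and 2 or of SNF replicates 1 and 2 was left out, and Hnrnpu without any 1 WCH library, SNF replicate 1 or 2, TRAP replicate 3 or SynapTRAP replicate 1. Srsf10, Hnrnpr, Hnrnpk and Hnrnpu were not called with relative log expression factors or DESeq2. Srsf10 and Hnrnpr lost their calls under 9 of the 21 settings and Hnrnpk under 8. Most of these settings left out 1 library, SNF replicate 1 or 2 among them for each gene. Depth is a limit of this group, since a splicing factor gene tested had 2 to 1302 reads in an SNF library against 23 to 5712 in a WCH library. Malat1 fell by 3.60 (SE 1.04) in SNF and Miat fell by 2.28 (SE 0.78). Summed astrocyte markers were at 14998 to 20468 CPM and microglia markers at 357 to 729 CPM, against 2545 to 3191 and 89.8 to 112 in WCH, and the part of this glial RNA in the splicing factor values was not tested.

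The third comparison, SynapTRAP against SNF, asks what the pull-down of tagged ribosomes selects within the band. No splicing factor gene passed the test in either direction: 0 rose (against 2.29% of all genes tested) and 0 fell (against 1.79%) by edgeR. With shares that low over all genes, 0 of 39 is close to the background. At an unadjusted p under 0.05 there were 1 higher gene, Hnrnpl (against 10.9% of all genes), and 3 lower, Clk4, Srsf11 and Srsf5 (against 8.71%). DESeq2 called 0 higher and 2 lower, Clk4 and Srsf11. The median was -0.11 over the 39 genes and 0.03 over all genes, and its side depended on 1 library: it was 0.05 against 0.07 without SNF replicate 3, -0.05 against -0.06 without SynapTRAP replicate 1, and -0.30 against -0.01 without SynapTRAP replicate 3. Without SNF replicate 2 it was -0.22 against 0.04. SynapTRAP values of Clk4 lay below every SNF value (log2 -0.86, SE 0.31, edgeR adjusted p = 0.114). That held for 1 of the 39 genes, against 10% of all genes tested. The labels do not say what replicate numbers share, but correlations between libraries led them to be taken as pairs here. With the number as a block, Clk4 was called lower and no other gene was. Among markers, 0 of 12 of astrocytes, 1 of 12 of microglia and 3 of 12 of oligodendrocytes fell here, and 2 of 15 of neurons rose. Summed astrocyte markers were at 10298 to 17731 CPM in SynapTRAP and 14998 to 20468 in SNF. The part of this glial RNA in the splicing factor values was not tested.

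In the other direction, Hnrnpl, which regulates exons through CA repeats, was at 24.8, 31.0 and 15.6 CPM in SynapTRAP and 13.2, 11.7 and 15.3 in SNF. WCH held 19.3, 19.3 and 21 CPM and TRAP 27.6, 18.5 and 16.6. SynapTRAP and SNF just failed to overlap, and the log2 difference was 0.83 (SE 0.28, 95% interval 0.29 to 1.37, edgeR adjusted p = 0.0901). Hnrnpu was at 95.4, 122 and 92.3 CPM in SynapTRAP, above all SNF libraries, with a log2 difference of 0.38 (SE 0.23). The medians by role ran from -0.42 for SR genes to 0.32 for the hnRNP U type. Without SynapTRAP replicate 3, Hnrnpl was called higher and Srsf7 and Srsf11 lower, and without SNF replicate 3 there were again 0 calls by edgeR.

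The fourth comparison, SynapTRAP against TRAP, sets tagged ribosomes of the band against those of whole cortex. Its lower genes included kinases that the first comparison had not called. Of 39 genes, 8 fell (20.5%, against 18.1% of all genes tested), a share close to that background, and 0 rose (against 21.6%). At an unadjusted p under 0.05 there were 12 lower genes (against 22.6% of all genes) and 0 higher (against 25.4%). DESeq2 called 8 lower and 0 higher. The median was -0.50 against -0.02 over all genes, and 34 of 39 lay below the latter. Without SynapTRAP replicate 1 these medians were -0.31 and -0.04. Since TRAP is the reference here and was the numerator in the first comparison, high TRAP values enter both.

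Clk3 and Clk2 fell by 1.03 (SE 0.30, edgeR adjusted p = 0.00924) and 0.85 (SE 0.29, edgeR adjusted p = 0.0234) on the log2 scale, and Clk4 fell by 0.83 (SE 0.29, edgeR adjusted p = 0.0257). For all 3 kinases the SynapTRAP libraries lay below the TRAP libraries. Clk1 gave -0.56 (SE 0.41), with overlapping groups. Srsf9, an SR protein that can also repress exons, was at 6.80, 8.33 and 8.14 CPM in TRAP and 3.37, 2.73 and 5.60 in SynapTRAP, and at 11.2, 9.93 and 8.43 in WCH and 5.75, 3.19 and 8.51 in SNF. SynapTRAP lay below TRAP without overlap, at 0.492 times its level (log2 -1.02, SE 0.34, edgeR adjusted p = 0.0192). Srsf12, Srsf11 and Srsf4 fell by 0.88 (SE 0.32), 0.69 (SE 0.25) and 0.69 (SE 0.26), each with groups that overlapped. Srsf11 was at 45.7, 37.0 and 35.1 CPM in TRAP and 18.8, 19.3 and 35.5 in SynapTRAP, and at 85.5, 99.7 and 96.4 in WCH and 32.2, 36.2 and 48.2 in SNF. Srsf4 was at 18.2, 21.7 and 31.1 CPM in TRAP and 13.8, 11.3 and 19.3 in SynapTRAP, against 19.8, 20.4 and 19.3 in WCH and 12.7, 14.4 and 18 in SNF. Hnrnpdl fell by 0.66 (SE 0.24) and was the only hnRNP called. The hnRNP U genes had a median of 0.31, above that of all genes.

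Clk3 alone was called under all 21 alternatives. The count of 8 became 5 without TRAP replicate 1, 2 without SynapTRAP replicate 1 and 4 without SynapTRAP replicate 2. It became 19 without SynapTRAP replicate 3 and 1 when only the 6 libraries of the comparison were fitted. With scaling to counts outside the mitochondrial genome it became 20, but the median of all genes tested also moved, from -0.02 to -0.31. The median of the splicing factor genes less that of all genes was -0.48 under both scalings. Over all 21 alternatives this relative median ran from -0.59 to -0.27. Without SynapTRAP replicate 1, Clk4, Srsf4, Srsf9, Srsf11, Srsf12 and Hnrnpdl lost their calls, and without SynapTRAP replicate 2 Clk2, Srsf4, Srsf9 and Srsf11 did. Without TRAP replicate 3, Clk2, Clk4, Srsf4 and Hnrnpdl lost theirs, and without TRAP replicate 2 Srsf12 did while Hnrnph1 gained one. Replicate numbers were taken to pair these libraries too, and with the number as a block 10 genes fell, the 8 above with Rsrp1 and Srsf7. All 12 astrocyte markers, all 12 microglia markers and 10 of 12 oligodendrocyte markers rose in the same comparison, and neuron markers gave 4 higher and 5 lower of 15. Summed astrocyte markers were at 10298 to 17731 CPM in SynapTRAP and 753 to 1640 in TRAP, and their part in the splicing factor values was not tested.

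Whether the pull-down acted differently in the band and in cortex was tested as a difference of differences, SynapTRAP minus SNF less TRAP minus WCH. No splicing factor gene passed: 0 were higher (against 0.507% of all genes tested) and 0 lower (against 0.358%) by edgeR, and DESeq2 also called 0. Here too, 0 of 39 is close to the background. At an unadjusted p under 0.05 there were 5 higher genes of 39, Rsrp1, Srsf6, Tra2a, Hnrnpc and Hnrnpu (against 9.54% of all genes), and 0 lower (against 7.76%). Rsrp1 had the largest estimate, 1.43 (SE 0.41, 95% interval 0.63 to 2.23, edgeR adjusted p = 0.0867), since it fell by 1.81 with pull-down from cortex and gave -0.38 (SE 0.30) with pull-down from the band. With the replicate number as a block, Rsrp1 was called higher and no other gene was. Srsf6 gave 1.17 (SE 0.39) and Hnrnpu 0.99 (SE 0.32). The median was 0.46 over the 39 genes and 0.07 over all genes. It was 0.17 against -0.06 without TRAP replicate 2, 0.23 against 0.02 without SynapTRAP replicate 3, and 0.62 against 0.10 without SNF replicate 3. Leaving out any 1 of the 12 libraries also gave 0 calls by edgeR. Without the filter on low counts, Rsrp1 was called higher.

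Ratios between related genes within a library need no scaling between libraries, and 4 were taken after the values above had been seen, so they are given with no test. The raw counts of Clk1 and Clk4 over those of Clk2 and Clk3 came to 3.47, 4.48 and 4.62 for the WCH libraries and to 1.11, 1.08 and 0.850 for TRAP. SNF gave 1.31, 1.95 and 3.24, and SynapTRAP gave 0.821, 1.61 and 1.17. WCH thus had several reads of the Clk1 and Clk4 pair for each read of the other pair, and TRAP about as many of each. Some reads of Clk3 may be of Edc3 on the other strand.

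Srrm2 reads were 7.16, 6.68 and 7.47 times those of Srrm1 in WCH and 15, 13.7 and 19.5 times in TRAP. In SNF the ratios were 12, 11.3 and 10.6, and in SynapTRAP 24, 20.4 and 14.5. The 3 WCH libraries were the lowest of the 12. For Hnrnpul1 to Hnrnpu, WCH gave ratios of 0.275, 0.290 and 0.248 and TRAP 0.395, 0.528 and 0.561, while SNF gave 0.557, 0.503 and 0.492 and SynapTRAP 0.595, 0.349 and 0.581. That of Srsf4 to Srsf6 was 0.447, 0.377 and 0.312 in WCH and 0.740 to 1.87 in TRAP, 0.841 to 1.04 in SNF and 0.861 to 1.5 in SynapTRAP, with 43.0% of Srsf4 exons shared with an antisense gene. For both ratios too, WCH lay below every other library.

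**Figure D4:**
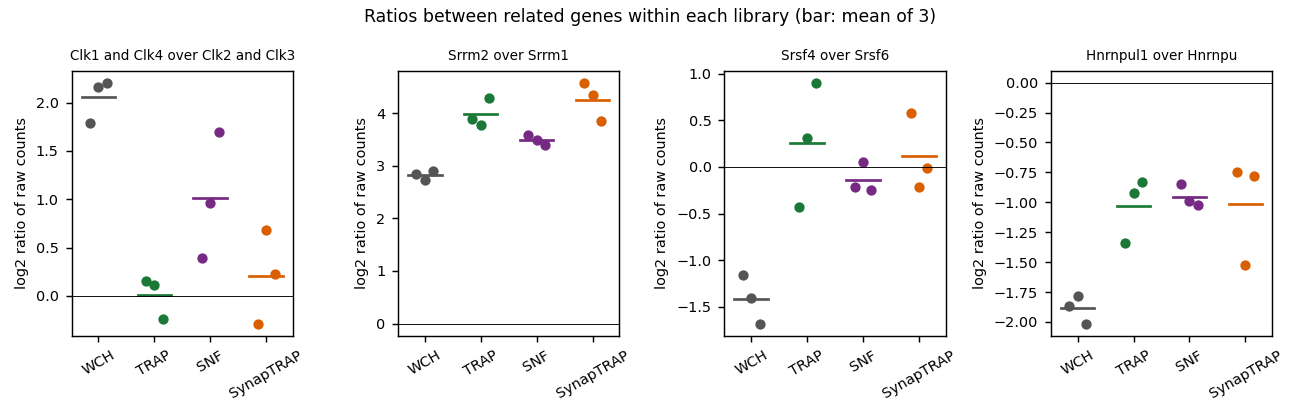
Log2 ratio of raw counts between related splicing factor genes in each of the 12 libraries, with a bar at the mean of each group of 3. The 3 WCH libraries lie above the others in the CLK panel and below them in the other 3 panels.

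What the genes share beyond their names was read from the annotation. Transcripts annotated with a retained intron were listed for 30 of the 39 genes tested (76.9%), against 58.2% of 12888 other protein-coding genes tested, and transcripts annotated for nonsense-mediated decay for 26 of 39 (66.7%), against 27.9%. These genes also have more annotated transcripts, a median of 9 against 5. Hnrnpk has the most retained-intron transcripts, 13, followed by Srsf11 with 11 and by Clk1, Clk4 and Hnrnpl with 7 each, and Rsrp1 has 1. Of these, Hnrnpk and Hnrnpl were not called in TRAP against WCH. Across the 39 genes, which share the same libraries, the share of such transcripts and the difference between TRAP and WCH had a Spearman correlation of -0.08. Since each count sums all transcripts of a gene, reads of retained introns annotated as exon and reads of productive mRNA cannot be told apart in these values. The 3 tables of selected genes that the authors deposited, with 109, 3508 and 275 rows, hold 0 of the 40 genes. Beside the 29879 genes counted, the tables of 109 and 275 rows are so small that 0 of 40 is close to the background.

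Other genes of the splicing pathway were read from lists. The snRNP and core spliceosome genes, which make up the catalytic machinery, gave 12 of 51 that rose in TRAP against WCH (against 11.1% of all genes) and 3 that fell (against 10.9%), with a median of 0.41. Prpf8, the protein at the heart of the spliceosome, rose by 2.18 (SE 0.27) and Sf3a2 by 1.76 (SE 0.43), whereas Snrnp70, a U1 snRNP protein, fell by 1.23 (SE 0.36). In SNF against WCH 0 of the 51 rose and 9 fell by edgeR, the latter a share near the 16.5% of all genes that fell. In SynapTRAP against TRAP 1 rose and 18 fell (against 18.1% of all genes), with a median of -0.60. The 32 SR-related speckle and exon junction genes gave 2 that rose, Scaf1 and Eif4a3, and 6 that fell in TRAP, among them Luc7l2 by 1.51 (SE 0.25), and 16 that fell in SNF, with medians of -0.20 and -0.78. The 25 hnRNP-like genes outside the name rule gave 1 higher and 6 lower in TRAP and 0 higher and 12 lower in SNF, with medians of -0.24 and -0.80.

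Of 32 other alternative splicing regulators, 2 rose in TRAP, the neuronal Celf3 and Rbfox3, and 10 fell, with a median of -0.26. In SNF against WCH, 1 of the 32 rose, Qk, and 17 fell (against 16.5% of all genes). Their median there was -0.75, close to that of the 39 splicing factor genes. Qk, a regulator of glial splicing, fell by 2.21 (SE 0.32) in TRAP, rose by 1.01 (SE 0.31) in SNF and was higher in SynapTRAP than in TRAP by 3.13 (SE 0.33), and it is the only gene of these splicing lists called in the difference of differences, at 2.13 (SE 0.43, edgeR adjusted p = 0.0278). Of the 5 SR protein kinases outside the CLK family, Srpk2 fell in TRAP by 0.61 (SE 0.21) and in SNF by 0.69 (SE 0.21), and Prpf4b fell by 1.52 (SE 0.29) in SNF. In SynapTRAP against SNF, Snrnp200, Scaf1 and Taf15 were the only genes of these lists called, all higher.

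**Figure D5:**
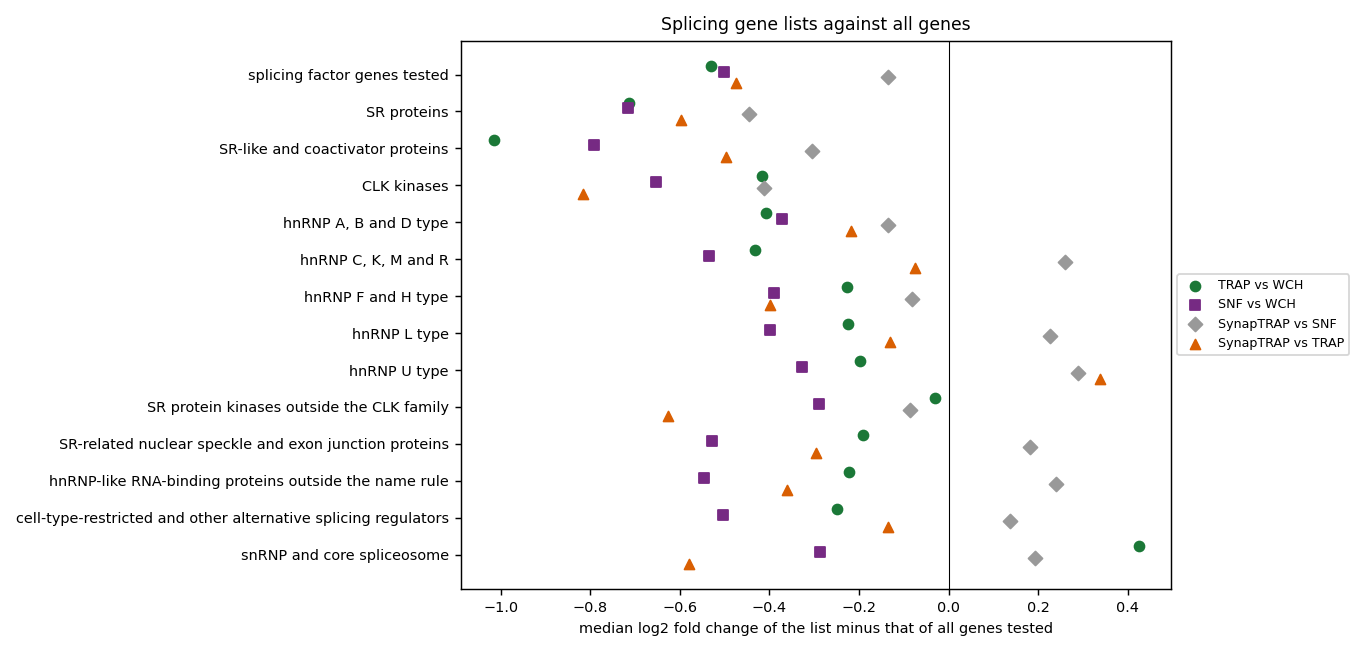
Median log2 fold change of each splicing gene list less the median of all genes tested, in 4 comparisons, with 0 marked by a line. The snRNP and core spliceosome list is the only one right of 0 in TRAP against WCH. The SR-like, SR, CLK, hnRNP A, B and D, and hnRNP F and H lists lie left of 0 in all 4 comparisons. So do the SR protein kinases outside the CLK family and the splicing factor genes as a whole.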

How the data were processed

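Reads of 12 mouse cortex libraries were counted per Ensembl gene, and the authors deposited raw counts, 1 file per library. Bowtie2, STAR, HTSeq and edgeR are named, with no version, in the submitters' processing notes, and the sources used here give no build, annotation or strand setting. Per the file headers, 3 further tables hold log2 fold changes, likelihood ratio scores and p-values of genes the authors selected, and they were only searched for the genes described.

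Symbols, exon lengths and coordinates came from GENCODE M21 (GRCm38). Lines that name no gene, 19.3% to 58.3% of reads, were left out of library sizes and tests. Counts were filtered with filterByExpr (minimum count 10), scaled by TMM and fitted over all 12 libraries with edgeR 4.0.16 (R 4.3.3; glmQLFit, robust, no block). Benjamini-Hochberg adjustment ran over all 13404 genes tested in each of 5 comparisons, at an adjusted p under 0.05. Standard errors were taken from the fold change and the F statistic, and 95% intervals used them with a normal quantile. DESeq2 1.42.0, other scalings and filters, a replicate block, fits of only the groups compared and the loss of each library were alternatives. The fit was tested on simulated counts.

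The splicing factor genes and all lists were chosen with earlier results of these data known. Values in every library are given for Rsrp1 and the CLK kinases. Some called genes of largest or smallest change in a role group have them too, as do others chosen after their values were seen. For further genes only the values of some groups are given. At most 2 genes called higher and 2 called lower are named from each other list. Deviations from the group means correlated over genes at 0.218, 0.293 and 0.378 between SNF and SynapTRAP libraries of the same number, and at 0.104, 0.144 and 0.106 between TRAP and SynapTRAP, so those numbers were taken as pairs. Replicates differed beyond counting noise.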

Additional observations from a re-analysis of the deposited data

How the results depend on the processing

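No splicing factor result changed direction among called values, and over all alternatives single genes lost a call 102 times, gained one 108 times and kept their side of the threshold 3835 times. Scaled by counts outside the mitochondrial genome, 35 genes fell in SNF against WCH and 20 in SynapTRAP against TRAP, and the share of higher genes among all calls went from 55.5% to 29.7% and from 54.4% to 36.2%. That share became 67.7% in SNF against WCH and 33.6% in SynapTRAP against SNF (from 56.1%) with relative log expression factors. DESeq2 called 2 genes lower in SynapTRAP against SNF, and the replicate block 1. In the difference of differences, 1 gene was called higher without a filter and 1 with the replicate block. With only the groups compared, 1 gene rose in TRAP against WCH and 1 fell in SynapTRAP against TRAP; the cause was not tested. The difference could not be fitted that way.

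Leaving out 1 library at a time gave 6 to 16 lower genes in TRAP against WCH, 10 to 24 in SNF against WCH, 2 to 19 in SynapTRAP against TRAP, and 0 to 2 lower and 0 to 1 higher in SynapTRAP against SNF. With the replicate block, 15 genes fell in TRAP against WCH and 23 in SNF against WCH. Libraries of the same number correlated at -0.015 to 0.063 between TRAP and WCH and at 0.065 to 0.165 between SNF and WCH. Libraries of different numbers reached at most 0.0499. The numbers thus may pair SNF with WCH too, while for TRAP and WCH the correlations lay on both sides of that value.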
